A study of Mus musculus with 6 samples.

Results

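The cytochrome P450, carboxylesterase, UDP-glucuronosyltransferase, sulfotransferase and flavin monooxygenase genes were followed in mouse fetal liver taken at E13.5. Members were all probes whose file symbol begins with Cyp and a digit (Cyp51 left out), Ces, Ugt1, Ugt2, Sult, or Fmo and a digit. The rule took 188 of 45281 probes on the Illumina bead array, with 121 file symbols, which stand for 119 genes after older names were updated. Of these 119 genes, 28 were detected, which means that at least 1 probe had a detection p below 0.05 on at least 3 of the 6 arrays. Each gene was represented by its probe with the highest mean signal.

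Total RNA of whole livers was hybridised, all of the strain C57/Bl6:129Sv. The 3 double transgenic livers carried R26-LSL-KITD816V, a mutant form of the KIT receptor placed in the ROSA26 locus behind a stop cassette, together with Vav-iCre, a Cre recombinase under control of Vav, a gene of blood cells. The 3 controls carried 1 transgene each: replicate 1 carried Vav-iCre, and replicates 2 and 3 carried R26-LSL-KITD816V. The labels do not say whether each array held a separate embryo, so the spread behind each p-value may be technical rather than between animals. All arrays shared 1 chip, with controls on positions A to C and double transgenic livers on D to F, so position and group cannot be told apart.

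Cytochrome P450 enzymes are heme proteins that insert oxygen into sterols, fatty acids, steroid and retinoid hormones and foreign compounds, with electrons passed on by P450 reductase. Flavin monooxygenases oxidise nitrogen and sulfur atoms, and carboxylesterases cleave esters. UDP-glucuronosyltransferases and sulfotransferases then attach glucuronic acid or sulfate, which makes products soluble for excretion. In adult mouse liver many genes of these families belong to hepatocytes, and many are switched on around and after birth. Some members, such as Cyp11b2, Cyp1b1 and Cyp2s1, are known mainly from other cells. The fetal liver of this stage is chiefly a blood-forming organ in which hepatoblasts, the precursors of hepatocytes, lie among erythroid cells.

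The promoters of 4 members that fell are shown because they hold letters known as binding motifs of liver transcription factors. Sequences run from 250 bases before to 50 bases after the annotated start, 5′ to 3′ on the gene's strand, from RefSeq on GRCm38.p6, which named 23 of the 28 detected genes. Capitals mark the HNF4 motif CAAAGTCCA in Cyp2c67 (chr19:39648993-39649292, minus strand) and Cyp2c70 (chr19:40187237-40187536, minus strand). They mark the HNF1 partial site GTTAAT, or ATTAAC on the other strand, in Sult1a1 (chr7:126676369-126676668, minus strand) and Cyp2d26 (chr15:82794196-82794495, minus strand).
Cyp2c67: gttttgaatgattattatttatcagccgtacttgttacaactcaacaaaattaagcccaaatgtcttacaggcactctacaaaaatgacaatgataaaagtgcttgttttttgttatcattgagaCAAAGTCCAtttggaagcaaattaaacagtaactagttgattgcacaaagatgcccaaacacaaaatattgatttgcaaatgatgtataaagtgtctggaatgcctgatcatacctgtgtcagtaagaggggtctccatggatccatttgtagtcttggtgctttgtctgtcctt
Cyp2c70: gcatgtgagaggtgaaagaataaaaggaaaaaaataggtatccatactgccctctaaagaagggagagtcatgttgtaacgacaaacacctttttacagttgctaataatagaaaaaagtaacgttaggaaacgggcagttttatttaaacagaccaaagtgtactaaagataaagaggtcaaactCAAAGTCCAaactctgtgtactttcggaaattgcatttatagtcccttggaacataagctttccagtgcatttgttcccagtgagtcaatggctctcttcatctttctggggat
Sult1a1: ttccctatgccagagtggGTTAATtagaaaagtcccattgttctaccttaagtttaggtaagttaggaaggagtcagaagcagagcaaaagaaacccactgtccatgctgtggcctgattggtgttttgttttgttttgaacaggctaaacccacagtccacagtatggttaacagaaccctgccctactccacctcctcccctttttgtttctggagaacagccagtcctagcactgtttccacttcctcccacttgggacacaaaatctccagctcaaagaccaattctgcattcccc
Cyp2d26: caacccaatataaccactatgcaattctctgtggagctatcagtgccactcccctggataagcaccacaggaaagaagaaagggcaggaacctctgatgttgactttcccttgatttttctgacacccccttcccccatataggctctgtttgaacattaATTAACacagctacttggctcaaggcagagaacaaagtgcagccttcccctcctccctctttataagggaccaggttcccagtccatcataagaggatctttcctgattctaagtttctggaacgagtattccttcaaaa
In all, 11 motifs were searched on both strands of 24 promoters of the detected members. The 2 in capitals, and the 4 promoters printed, were picked after the matches had been seen, so they illustrate and test nothing. CAAAGTCCA stood in 2 of the 24 promoters, 125 bases before the annotated start in Cyp2c67 and 64 bases before it in Cyp2c70, and in 0.47% of all 32851 promoters of the table. GTTAAT stood in 3, those of Cyp2d26, Sult1a1 and Ugt1a10, and in 7.1% of all promoters. These 5 genes were among the 13 members that fell and had a promoter in the table, of 23 detected members with one. Of the other motifs, 2 matched no member promoter, the C/EBP motif TTGCGCAA (0.18% of all promoters) and the FOXA motif TATTTAC (3.04%). The FOXA motif TGTTTAC matched 1 (3.65%), the E box CACGTG 1 (7.15%), AAAGTCC 3 (4.21%), the nuclear receptor partial site AGGTCA 5 (16.26%), the AHR core GCGTG 6 (32.39%), the TATA box TATAAA 7 (13.62%) and CAAAG 21 (53.93%). AAAGTCC and CAAAG lie inside CAAAGTCCA, so their matches overlap with it. A match describes letters in the window and is no evidence of binding.

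Fewer members were detected in the double transgenic livers. With every one of the 119 genes counted, whether or not it passed the filter, 35, 32 and 31 genes were detected on control arrays 1 to 3 and 22, 20 and 20 on double transgenic arrays 1 to 3. Every control array lay above every double transgenic array, and the means were 32.7 ± 2.1 and 20.7 ± 1.2 (SD, n = 3), a difference of -12 genes. An exact two-sided permutation test gave p = 0.1, the smallest that 3 arrays against 3 allow. The same count over all genes of the table was 12183 ± 176 in controls and 12099 ± 208 in double transgenic livers, with overlapping arrays (exact permutation p = 0.5). Of the 119 members, 6 were detected on all 3 control arrays and on no double transgenic array, and 0 showed the opposite pattern. Neither pattern was counted over all genes, so these counts only describe the members.

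**Figure D1:**
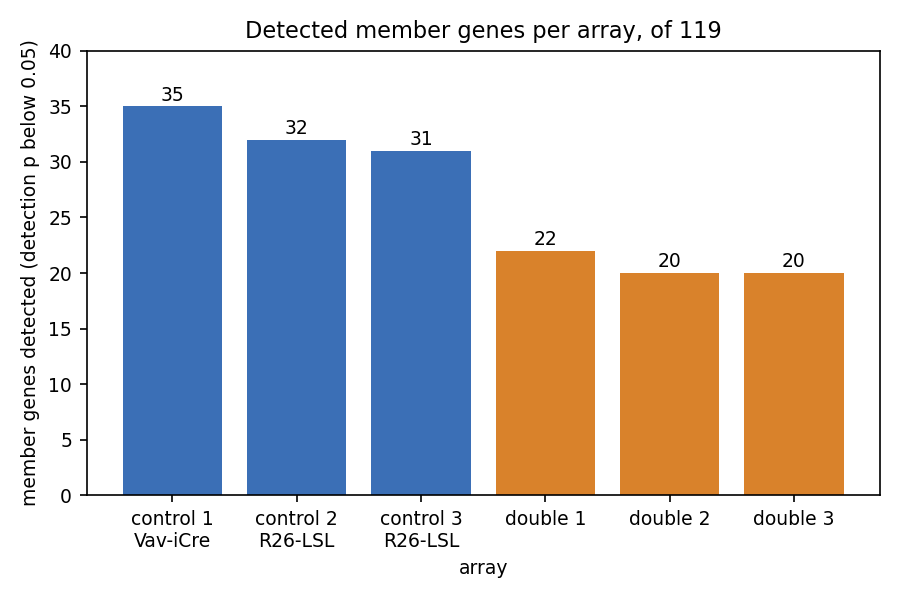
Number of member genes, of 119, detected on each array (detection p below 0.05). Bars are single arrays, controls in blue with their transgene (R26-LSL for R26-LSL-KITD816V) and double transgenic livers in orange; the controls stand at 31 to 35 and the double transgenic livers at 20 to 22.

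Most members were not detected. Of the 119 members, 73 were detected on no array. They include Cyp7a1, the first enzyme of classical bile acid synthesis, the hepatic drug-metabolising genes Cyp1a2, Cyp2e1 and Cyp3a11, all 6 measured genes whose symbols begin with Cyp2j, the Cyp4a genes, Sult2a1, and Ugt1a1, which conjugates bilirubin. A further 18 had probes detected on at most 2 arrays: 12 on controls only, 4 on double transgenic livers only and 2 on both, of which Cyp39a1 was seen by a different probe in each group. Cyp8b1, the sterol 12-hydroxylase of bile acid synthesis, and Fmo4 were among those seen on 2 control arrays, and Cyp2c65 and Cyp4f39 were seen on 2 double transgenic arrays. No difference between groups was tested for these 18 under the detection filter. Their split between the groups was not counted over all genes either, so it only describes these members.

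Among the 28 detected members, 17 fell, 0 rose and 11 did not pass (limma, adjusted p below 0.05 with Benjamini-Hochberg adjustment over all 12262 genes tested). Over all genes tested, 6.4% fell and 2.53% rose, 8.93% in either direction. With the replicate number fitted as a block, 20 members fell, where 9.06% of all genes fell and 5.15% rose. At an unadjusted p below 0.05, 22 members were lower and 0 higher, where 12.3% of all genes were lower and 10.5% higher. The members' median difference, double transgenic minus control, was -1.64 on the log2 scale over the 28, beside 0.07 over all genes, and -1.39 with 6 genes detected on no double transgenic array set at their bound. Over all 119 members with no filter it was -0.041. Without background correction it was -0.66 over the 28, and the differences of all 17 members that fell were smaller, between -1.92 and -0.44, so every fold below is a fold after that correction. On 22 of the 28 members every double transgenic array lay below every control array, which held for 13.7% of all genes, and no member showed the reverse, which held for 14.8%. A gene seen only in controls passes the filter because it is high there. The counts over the 28 are therefore a description, and 4 of the 17 that fell were detected on no double transgenic array, 6 on 2 arrays and 7 on all 3. With no filter, 15 of 119 members fell and 0 rose, where 2.16% of 28880 genes fell and 1.03% rose. Of 10 members whose probe was detected on all 6 arrays 7 fell and 0 rose, where 5.51% of 10060 genes fell and 2.47% rose.

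**Figure D2:**
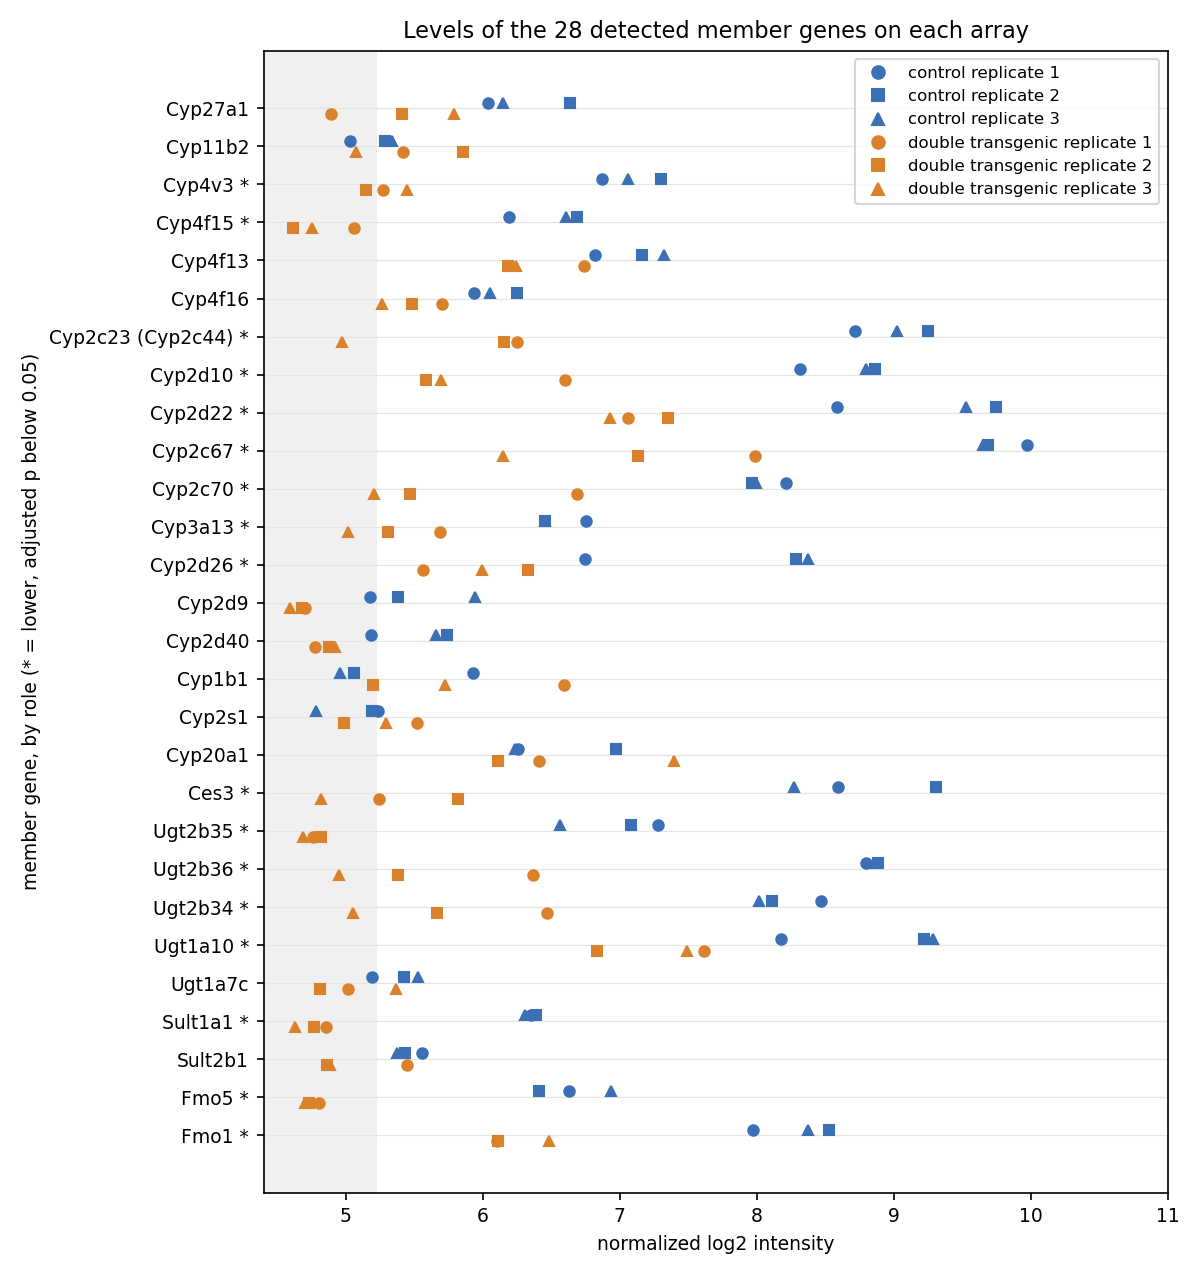
Normalized log2 intensity of the 28 detected members on each array, in the order of their roles, with control arrays in blue and double transgenic arrays in orange, and marker shapes for replicates 1 to 3. Grey marks levels below the highest of the 6 arrays' lowest detected signals, and an asterisk marks the 17 members that fell; for all 17 the groups do not overlap.

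**Figure D3:**
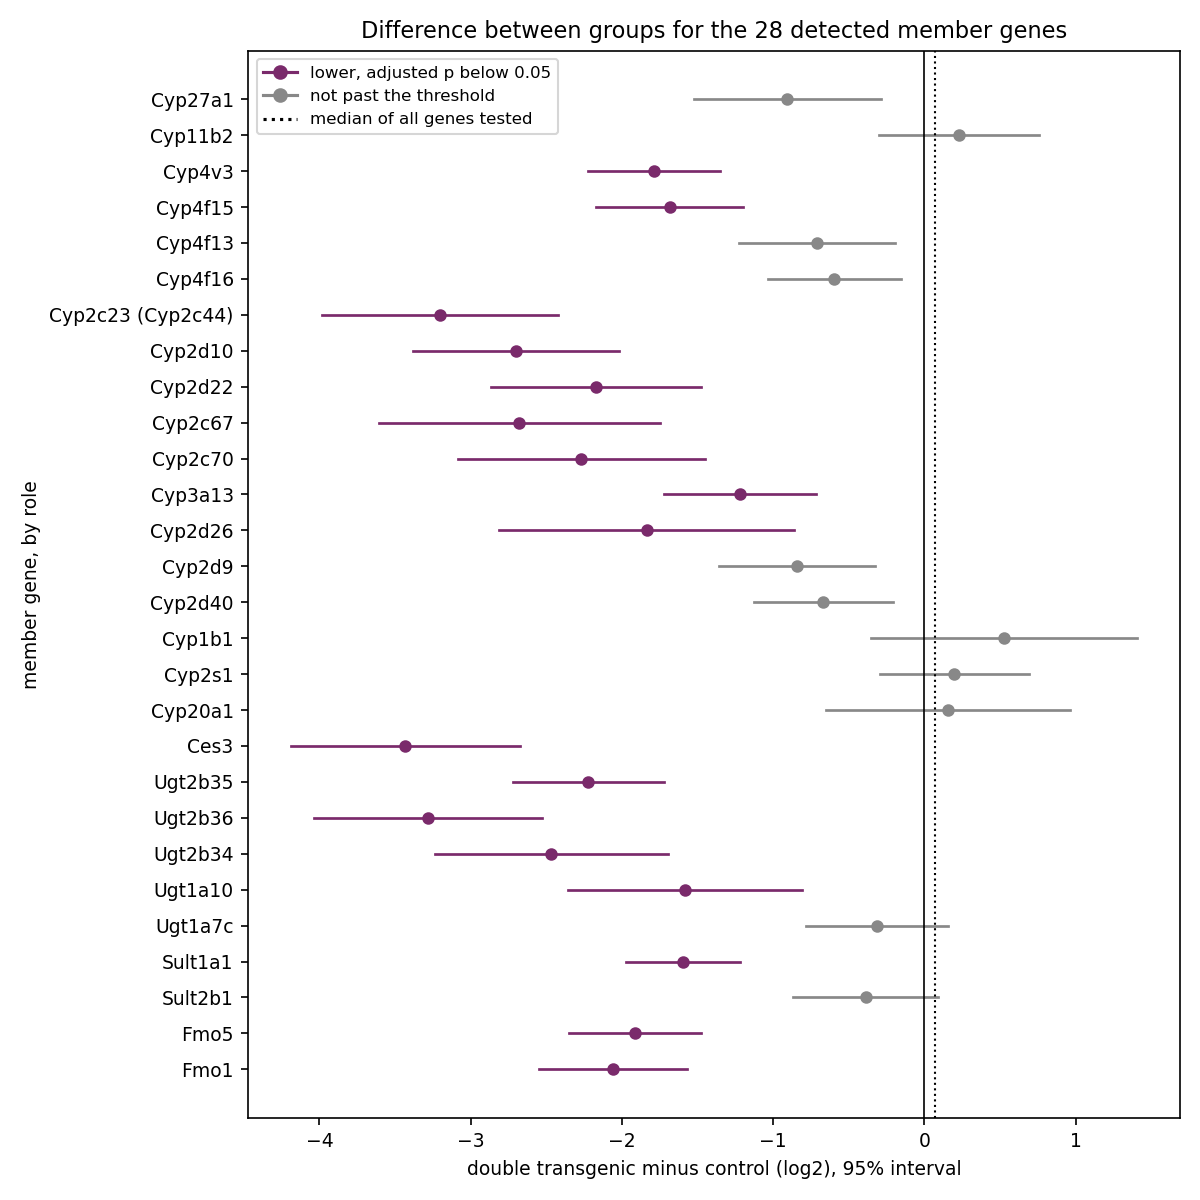
Difference between groups (double transgenic minus control, log2) with its 95% interval for the 28 detected members, purple where adjusted p was below 0.05 and grey otherwise. The dotted line is the median of all genes tested at 0.07; the 17 members that fell lie between -3.43 and -1.22. For Cyp4f15, Cyp2d9, Cyp2d40, Ugt2b35, Sult1a1 and Fmo5, detected on no double transgenic array, the drawn value is the fitted one and the text gives a bound.

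Hepatoblast marker genes were lower in the same arrays. All 12 tested markers of 15 listed fell, with a median of -2.0, and their summed level ranged from 17.02 to 17.36 in controls and from 15.29 to 15.89 in double transgenic livers. The differences were -1.27 (SE 0.21) for Afp, the main fetal plasma protein, -2.04 (SE 0.31) for Ttr, a thyroid hormone carrier, and -2.10 (SE 0.28) for Hnf4a, a hepatocyte transcription factor. The Alb and Fgb probes were detected on no array (signals of 117 to 137), so albumin itself gives no check of the tissue. Macrophage markers fell as well, 9 of 11 tested with a median of -1.94, and their summed level went from 12.84 to 12.88 in controls down to 10.57 to 11.29. Of 11 erythroid markers 1 fell and 2 rose, with a median of -0.11. In whole tissue, fewer cells of a type and less RNA per cell cannot be told apart, and the part of these markers in the members' falls was not tested.

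Of 9 genes of sterol, bile acid and vitamin D metabolism, only Cyp27a1, the mitochondrial sterol 27-hydroxylase, was detected. It stood at 6.04, 6.64 and 6.15 in control replicates 1 to 3 and at 4.90, 5.41 and 5.79 in double transgenic replicates 1 to 3 (normalized log2 intensity, as all levels below). The groups did not overlap, but the difference of -0.91 (SE 0.27) did not pass (adjusted p = 0.0813). Only 2 double transgenic arrays detected the probe used. The gene passed under the replicate block (adjusted p = 0.0403), with array weights (adjusted p = 0.017) and with its kept probes averaged (-1.09, adjusted p = 0.00689). It did not pass under the other alternatives. Its other 2 kept probes, at -0.95 and -1.41, were detected on no double transgenic array.

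Of 6 steroid hormone genes, only Cyp11b2, known as the aldosterone synthase of the adrenal cortex, passed the filter, on 2 arrays of each group. Its levels of 5.03 to 5.34 in controls and 5.07 to 5.85 in double transgenic livers overlapped, with a difference of 0.23 (SE 0.23, adjusted p = 0.605). Of 6 adrenal and gonadal markers, Nr5a1, Star, Hsd3b1, Mc2r and Inha were detected on no array. Akr1b7, an aldo-keto reductase, was detected on all 3 control arrays and 1 double transgenic array and differed by -1.89 (SE 0.43, adjusted p = 0.0309). Neither Cyp26a1 nor Cyp26b1, which degrade retinoic acid, was detected on 3 arrays.

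Genes of fatty acid and eicosanoid oxidation numbered 20, of which 4 were detected and 2 fell. Cyp4v3, related to the human fatty acid hydroxylase CYP4V2, stood at 6.87, 7.30 and 7.06 in controls and at 5.27, 5.15 and 5.45 in double transgenic livers. Its groups lay well apart, and it fell by 1.79 (SE 0.19, adjusted p = 0.00146), with detection on only 2 double transgenic arrays. Cyp4f15, a member of the family that hydroxylates leukotrienes and fatty acids, stood at 6.19, 6.69 and 6.61 in controls and at 5.06, 4.62 and 4.76 in double transgenic livers, where it was detected on no array. It was at least 2.47-fold lower there, a bound set by the lowest detected signal (adjusted p = 0.00226 for the fitted difference). Here and below, such a bound compares group means after background correction and carries no interval. Without that correction the fitted difference of Cyp4f15 was -0.61. Its relatives Cyp4f13 and Cyp4f16, detected on all 6 arrays, stood at -0.71 (SE 0.23, adjusted p = 0.0981) and -0.60 (SE 0.19, adjusted p = 0.103). On the probe used for each, the groups did not overlap, and both genes passed with array weights and without replicate 1 of both groups. Cyp4f13 also passed without double transgenic replicate 1. Another Cyp4f16 probe was detected on 1 array of each group. Its raw signals overlapped, with 147.9 to 155.8 in controls and 141.9 to 163.3 in double transgenic livers. A further Cyp4f16 probe was detected on no array.

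The largest group held 42 genes of P450 families 1, 2 and 3, which act on foreign compounds, steroids and fatty acids. Of these 11 were detected, 7 fell and 4 did not pass. All 3 detected Cyp2c genes fell, of 13 measured. Cyp2c23, listed in the file as Cyp2c44 and known as an arachidonic acid epoxygenase, stood at 8.72, 9.25 and 9.02 in controls and at 6.25, 6.15 and 4.97 in double transgenic livers. It was 9.22-fold lower (95% interval 5.36 to 15.8, adjusted p = 0.00146) and only 2 double transgenic arrays detected it, with replicate 3 the lowest. Another Cyp2c23 probe was detected on no array.

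Cyp2c67, whose promoter is shown above, stood at 9.97, 9.69 and 9.65 in controls and at 7.99, 7.13 and 6.14 in double transgenic livers. The double transgenic arrays were spread over more than the control arrays and stayed below all of them, 6.41-fold lower (95% interval 3.37 to 12.2, adjusted p = 0.00474). Another Cyp2c67 probe was detected on no array. Cyp2c70, the mouse enzyme that makes muricholic acids from bile acids, stood at 8.21, 7.96 and 7.99 in controls and at 6.69, 5.47 and 5.21 in double transgenic livers. Replicate 1 was again the highest double transgenic array, and the fold was 4.82 (95% interval 2.74 to 8.48, adjusted p = 0.00564). Genes of the Cyp2c cluster are alike in sequence, and the files give no probe sequences, so a probe may read more than 1 of them.

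Of 8 measured Cyp2d genes, 5 were detected and 3 fell. Cyp2d10 stood at 8.32, 8.86 and 8.80 in controls and at 6.60, 5.58 and 5.69 in double transgenic livers, 6.5-fold lower (95% interval 4.05 to 10.4, adjusted p = 0.00151). Cyp2d22, often set beside human CYP2D6, stood at 8.59, 9.74 and 9.53 in controls and at 7.06, 7.35 and 6.93 in double transgenic livers. It was 4.51-fold lower (95% interval 2.78 to 7.3, adjusted p = 0.00334), and the Vav-iCre control was its lowest control array. Another Cyp2d22 probe was detected on only 1 array of each group. Its raw signals overlapped, with 144.4 to 152.5 in controls and 133.2 to 155.9 in double transgenic livers.

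Cyp2d26 showed the same low Vav-iCre control, with 6.75, 8.29 and 8.37 in controls and 5.57, 6.33 and 6.0 in double transgenic livers. It fell by 1.84 (SE 0.43, adjusted p = 0.0319), with control replicate 1 only slightly above the highest double transgenic array. It no longer passed without any 1 array other than control replicate 1, without background correction, in the authors' value table and with no filter. Its adjusted p ran from 0.000826 to 0.116 over 19 alternatives. The other Cyp2d26 probes were each detected on 2 control arrays and on no double transgenic array. On each of them the Vav-iCre control had a raw signal of 144.3. That lay inside the double transgenic ranges of 136.3 to 144.4 and 140.8 to 146.5, so the groups overlapped there. Cyp2d9 and Cyp2d40 were detected on all controls and on no double transgenic array. By the bound they were at least 1.24-fold and at least 1.26-fold lower, and they did not pass (adjusted p = 0.0553 and 0.0836). With the replicate block both passed (adjusted p = 0.0445 and 0.0417).

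Cyp3a13 was the only detected gene of 6 measured in the Cyp3a subfamily, the main drug-metabolising P450s of adult liver. It stood at 6.75, 6.45 and 6.46 in controls and at 5.69, 5.31 and 5.01 in double transgenic livers. It fell by 1.22 (SE 0.22, adjusted p = 0.0106), and only 2 double transgenic arrays detected it. Its other kept probe was detected on no double transgenic array. On the brightest probe of each gene, the groups did not overlap for any of the 7 genes that fell.

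Cyp1b1 and Cyp2s1, P450s known mainly outside hepatocytes, were higher in the double transgenic mean without passing. Each was detected on only 1 control array and 2 double transgenic arrays, so part of their levels lie at the background. Cyp1b1, which oxidises estrogens and polycyclic hydrocarbons, stood at 5.93, 5.06 and 4.95 in controls and at 6.59, 5.20 and 5.73 in double transgenic livers. Replicate 1 was the highest array of both groups, and the groups overlapped (difference 0.53, 95% interval -0.36 to 1.41, adjusted p = 0.466). Cyp2s1 was at 0.20 (95% interval -0.30 to 0.69, adjusted p = 0.635). Cyp20a1, a P450 without a settled substrate and detected on all 6 arrays, was at 0.15 (95% interval -0.65 to 0.96, adjusted p = 0.841), and its sign turned with array weights (-0.085) and without double transgenic replicate 3 (-0.23). These intervals still allow changes of either sign.

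The only detected carboxylesterase of 5 measured carried the name Ces3. RefSeq lists that name as a synonym of both Ces1d and Ces3a, so the gene read here is not settled. It stood at 8.59, 9.31 and 8.27 in controls and at 5.24, 5.82 and 4.82 in double transgenic livers. It was 10.8-fold lower (95% interval 6.39 to 18.3, adjusted p = 0.00131, log2 difference -3.43, and -1.82 without background correction) and only 2 double transgenic arrays detected it.

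Among 18 UDP-glucuronosyltransferase genes 5 were detected and 4 fell. Ugt2b34, Ugt2b35 and Ugt2b36, which conjugate steroids and other lipophilic compounds, were the only 3 detected of 10 Ugt2 genes measured. In the annotation they lie at 1 end of the Ugt2 cluster with Ugt2b1 among them, which was detected on no array. Ugt2b36 stood at 8.79, 8.89 and 8.86 in controls and at 6.36, 5.38 and 4.95 in double transgenic livers. The controls were close together, and the gene was 9.73-fold lower (95% interval 5.76 to 16.4, adjusted p = 0.0014) with kept probes at -3.28 and -2.87. Only 2 double transgenic arrays detected it.

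Ugt2b34 stood at 8.47, 8.11 and 8.01 in controls and at 6.47, 5.67 and 5.06 in double transgenic livers, 5.53-fold lower (95% interval 3.24 to 9.44, adjusted p = 0.00308). Only 2 double transgenic arrays detected it. Ugt2b35 stood at 7.28, 7.08 and 6.56 in controls and at 4.76, 4.82 and 4.69 in double transgenic livers. It was detected on no double transgenic array and was at least 3.45-fold lower (adjusted p = 0.00134). The groups did not overlap for either gene. These genes are close copies, so a probe may read more than 1.

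The Ugt1a genes share their last exons, so a probe named Ugt1a10 may read any of them. It stood at 8.18, 9.22 and 9.29 in controls and at 7.62, 6.83 and 7.49 in double transgenic livers. The Vav-iCre control was the lowest control, and the gene fell by 1.58 (SE 0.34, adjusted p = 0.0226), with 3 kept probes from -1.78 to -1.58. The call was lost without control replicate 2 or 3, without double transgenic replicate 2 or 3 and with no filter, with adjusted p from 0.000498 to 0.0916 over 19 alternatives. Ugt1a7c was at -0.32 (SE 0.21, adjusted p = 0.409) with overlapping groups.

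Of 11 sulfotransferases, Sult1a1, which sulfates phenols, stood at 6.35, 6.39 and 6.31 in controls and at 4.86, 4.77 and 4.63 in double transgenic livers. It was detected on no double transgenic array and was at least 2.23-fold lower (adjusted p = 0.00142). Sult2b1, which sulfates cholesterol and other sterols, was the other detected gene and stood at -0.39 (SE 0.21, adjusted p = 0.316), with double transgenic replicate 1 at 5.45 inside the control range. Another Sult2b1 probe was detected on no control array and on 2 double transgenic arrays. Its raw signals overlapped, with 130.3 to 149.8 in controls and 141.4 to 158.9 in double transgenic livers. A further probe was detected on no array.

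Both detected flavin monooxygenases of 5 measured fell. Fmo1, which oxidises nitrogen and sulfur in drugs and amines, stood at 7.97, 8.52 and 8.37 in controls and at 6.10, 6.11 and 6.48 in double transgenic livers. Detected on all 6 arrays, it was 4.17-fold lower (95% interval 2.97 to 5.85, adjusted p = 0.00142). The other Fmo1 probes were detected on no array. Fmo5, which acts on ketones, stood at 6.63, 6.41 and 6.94 in controls and at 4.81, 4.73 and 4.70 in double transgenic livers. It was detected on no double transgenic array and was at least 2.77-fold lower (adjusted p = 0.0014). Another Fmo5 probe was detected on 1 control array only.

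Of the 17 members that fell, replicate 1 was the highest double transgenic array for 11 and replicate 3 the lowest for 11, where over all genes replicate 1 was highest for 40.7% and replicate 3 lowest for 33.7%. Among the hepatoblast markers, replicate 1 was highest for 10 of 12 and replicate 3 lowest for 8 of 12. Their median level was 11.64, 11.32 and 11.22 on double transgenic replicates 1 to 3, and that of the 17 members 6.10, 5.58 and 5.05. The last value lies below 5.15, the lowest detected level of that array. Of the 17, 4 were detected on no double transgenic array and 6 on only 2, so part of their order lies at the background. The part of the markers in the spread of the 17 members was not tested.

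Between the control genotypes, no member passed (limma, 0 of 28, and 0 of 12262 genes, 0%). The largest differences among the 28 were those of Cyp2d26, Cyp2d22 and Ugt1a10, named here for their size. They were higher in the R26-LSL-KITD816V controls than in the Vav-iCre control by 1.58 (SE 0.34), 1.05 (SE 0.28) and 1.07 (SE 0.36). This fit assumes that the lone Vav-iCre array varies like the others. Without that array, 19 members fell and 0 rose, where 5.95% of all genes fell and 2.45% rose, and the members' median difference was -1.86.

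The enzymes that supply the members with electrons and cosubstrates were counted in the same fit. Of 8 tested P450 redox partners, 0 passed (3 lower and 1 higher at an unadjusted p below 0.05), with a median of -0.37. With the replicate block Cyb5r1, a cytochrome b5 reductase, passed as higher, by 0.74 (adjusted p = 0.0373, against 0.0727 without the block). Por, the reductase that feeds microsomal P450s and is named here after its value was seen, stood at 8.01, 8.69 and 8.62 in controls and at 7.81, 8.01 and 7.89 in double transgenic livers. Its groups were separated only by a narrow gap, and the difference of -0.54 (SE 0.22) did not pass (adjusted p = 0.193). Of 6 genes of glucuronic acid and sulfate supply 1 fell, with a median of -0.29. It was Papss2, which makes the sulfate donor, at -1.48 (SE 0.29, adjusted p = 0.0144).

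Of 8 tested xenobiotic and bile acid receptors and their partners 3 fell, 0 rose and 5 missed the threshold (median -0.43). Nr1h3, the oxysterol receptor LXRα, which macrophages also express, stood at 9.03, 9.11 and 9.35 in controls and at 7.06, 6.47 and 6.59 in double transgenic livers, a fall of 2.46 (SE 0.21, adjusted p = 0.000962). Nr1i2, the drug-sensing receptor PXR that controls Cyp3a genes, fell by 1.42 (SE 0.25, adjusted p = 0.00979). Nr1h4, the bile acid receptor FXR, fell by 1.83 (SE 0.44, adjusted p = 0.0374). Ahr, which senses aromatic hydrocarbons, was detected on no array.

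Glutathione S-transferases, a further conjugating family, fell in 11 of 19 tested genes, 0 rose, and the median was -1.49. The replicate block added Gstm2 and Gstk1 as lower (adjusted p = 0.0299 and 0.0223). The differences were -2.76 (SE 0.32) for Mgst1, a microsomal member, -2.50 (SE 0.23) for Gstt3 and -2.48 (SE 0.29) for Gstm1. Gstm7 was detected on no double transgenic array and was at least 3.43-fold lower. Among 18 other oxidising and conjugating enzymes 8 fell, 0 rose and 10 missed the threshold (median -0.48). The differences were -3.22 (SE 0.29) for Gnmt, a glycine methyltransferase, and -2.29 (SE 0.21) for Tst, the sulfurtransferase rhodanese. They were -1.91 (SE 0.21) for Ephx1, the microsomal epoxide hydrolase, and -1.54 (SE 0.18) for Aldh3a2, a fatty aldehyde dehydrogenase. Close copies among the transferases may share probes.

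**Figure D4:**
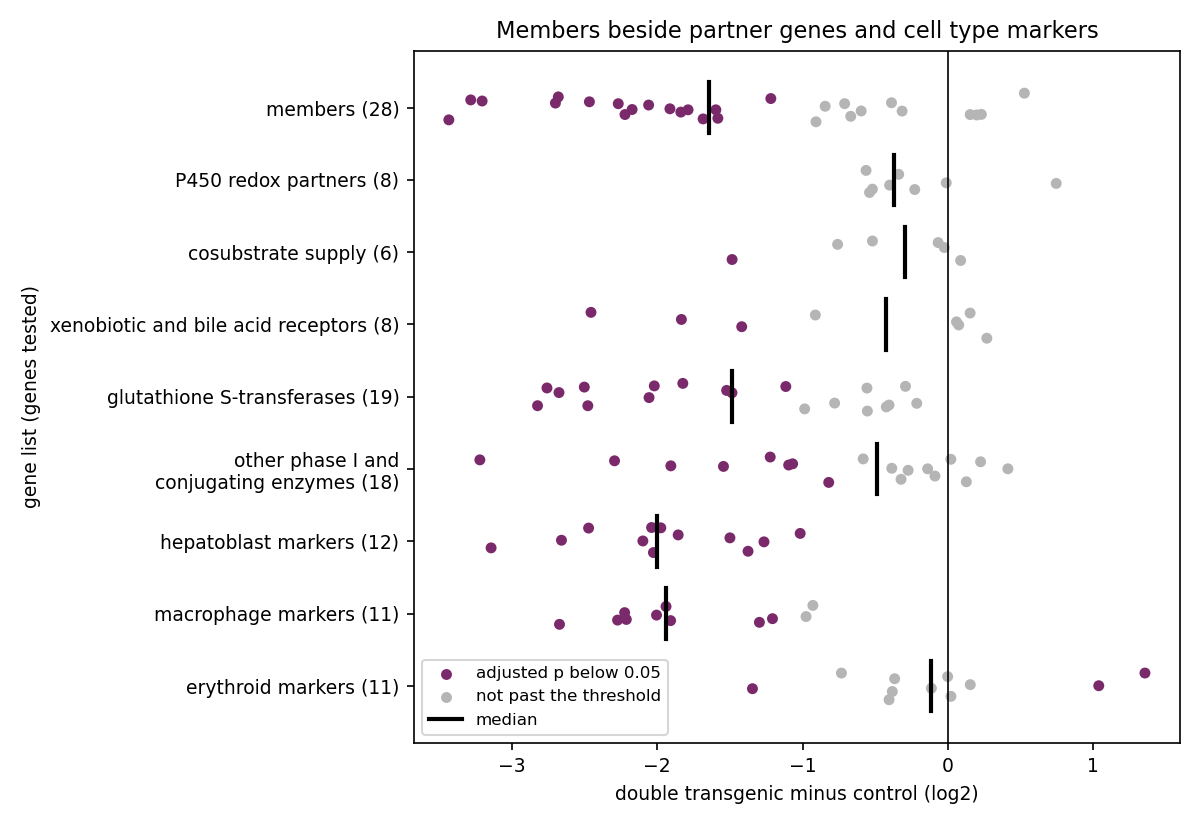
Difference between groups (double transgenic minus control, log2) of each tested gene, for the 28 detected members, 5 partner lists and 3 marker lists, with the number of genes tested in parentheses. Points are genes, purple where adjusted p was below 0.05, and bars are medians; the members' median is -1.64 and that of the redox partners -0.37.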

How the data were processed

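Per the file headers, the deposited table holds a signal intensity and a detection p-value for each probe on each array. The submitters' processing notes name GenomeStudio, with no version given in the sources used here. A second deposited table of the authors, also intensity on a linear scale, was within 0.303% of the quantile-normalized signal at every probe. The lowest signal of each array was 103 to 109, so the deposited signals still hold a floor well above 0. What else was done to the background upstream is unknown.

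R 4.3.3 and limma 3.58.1 were used. Background correction with neqc (negative control values derived from detection p, offset 16) was followed by quantile normalization and log2. Of 45281 probes, 17855 with a detection p below 0.05 on at least 3 of 6 arrays were kept. RefSeq (GRCm38.p6) served to update symbols where a single current symbol matched. The probe with the highest mean represented its gene, giving 12262 genes. The model was lmFit with eBayes, tested on both sides, and p-values were adjusted by Benjamini-Hochberg over all these genes at a threshold of 0.05. For a gene detected on no array of a group, the bound uses in that group the lowest detected signal of each array, or the gene's own value where higher. It depends on the background step, and the adjusted p beside it tests the fitted difference. The fit was also run on simulated data. The limit set for recovered changes was loosened after a first run fell short, so that run is not used as support.

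The titles number both groups 1 to 3. Deviations from the group means correlated between same-numbered arrays at 0.536, 0.283 and 0.206 across genes, each above the limit of 0.1. By that limit the replicate block was fitted as an alternative, while the main fit has no block. The correlations do not settle whether the numbers pair the arrays. Replicates 2 and 3 were the closest arrays of either group (correlation 0.996 for controls, 0.991 for double transgenic arrays). Replicate 1 stood apart in both groups, reaching at most 0.986 and 0.983 with them, which can raise same-numbered correlations without pairing. Control replicate 1 was also the only Vav-iCre control, so the block also takes up control genotype. The block added 3 calls among the members, given beside them.

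Every member past the threshold is named, with the brightest of the others in each role and up to 4 genes past the threshold of each partner list. Other named genes were added after their values were seen. Members and lists were chosen with earlier results of these data known. The number of arrays limits the precision; on them 17249 to 17873 probes were detected at median signals of 137 to 144.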

Additional observations from a re-analysis of the deposited data

How the results depend on the processing

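Alternatives covered background, normalization, filters, probes, symbols, moderation, array weights, the replicate block and left-out arrays. Among the 17 members that fell, 300 of 313 alternative values kept direction and threshold, 13 lost the threshold (8 of Cyp2d26 and 5 of Ugt1a10) and 0 reversed. Of the 11 others, 18 of 201 values passed, all lower, and 2 reversed, both of Cyp20a1 (-0.085 with array weights, and -0.23 to 0.42 without single arrays, below 0 without double transgenic replicate 3). The count of members that fell was 7 when detection on all 6 arrays was required, which left 10 members, and 15 to 22 otherwise, 15 to 19 without single arrays. No member rose under any of the 19 alternatives.

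The members' median of -1.64 was -0.66 with no background step and also in the authors' own values, -1.08 with an offset of 50, -0.041 over all 119 members with no filter, -1.95 with detection on all 6 arrays, -1.89 with array weights and -1.92 without replicate 1 of both groups. Without single arrays it ranged from -1.86 to -1.58. Fold sizes therefore depend on the background step. Median scaling moved the median of all genes to 0.11. The difference in detected members of -12 was -14 at a detection p below 0.01 and -18 with probes counted, and -12.8 to -10.8 without single arrays. With the replicate number as a block 20 members fell, and 25 partner genes fell against 23, while 1, Cyb5r1, rose. Levels near the background limit what can be seen of members detected in 1 group only.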
